A study of Mus musculus with 24 samples.

Results

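Gene expression in the whole hypothalamus of hypertensive BPH/2J mice was compared between 26 and 6 weeks of age. The 6 arrays labelled BPH at 26 weeks and the 6 labelled BPH at 6 weeks were used, 12 of the 24 arrays in the study. Each array held RNA of 1 male BPH/2J mouse, with no pooling, and the tissue was taken at the daily peak of blood pressure from mice under standard housing. BPH/2J mice are an inbred line with hypertension, and both age groups carry the same genotype and the same label of hypertension. The remaining 12 arrays came from male BPN/3J mice, the strain with normal blood pressure kept beside it, with 6 at each age and the same housing and sampling. They served as a second, separate measurement of ageing. Blood pressure was not given for single mice, no age between 6 and 26 weeks was sampled, and strain and blood pressure cannot be told apart. Levels are log2 RMA values of Affymetrix Mouse Gene 1.0 ST arrays, and every difference below is the 26-week mean minus the 6-week mean on that scale.

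The hypothalamus holds small groups of neurons that release peptides into the blood or onto other neurons to set feeding, growth, reproduction, water balance, arousal and sympathetic outflow to the heart and vessels. Its astrocytes, tanycytes and oligodendrocytes go on maturing after weaning, and precursors of oligodendrocytes become fewer as myelin is laid down. The block lies under the thalamus and above the pituitary and has no sharp upper border, so a dissected piece can hold some of either neighbour.

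The arrays were similar in overall signal, with medians between 5.89 and 6.09, and all 26 measured factors that mark hypothalamic regions lay above the median of unnamed probe sets on all 12 arrays. Markers of the thalamus differed between the ages on all arrays but 1. Their mean over 23 genes ran from 7.92 to 8.81 on the 6-week arrays other than replicate 2, was 9.42 on 6-week replicate 2, and ran from 9.40 to 9.58 on the 26-week arrays. Of the 23 genes 19 were called higher at 26 weeks and 0 lower, with a median difference of 0.86, while in BPN/3J 0 were called (limma; 1 at an unadjusted p below 0.05) and the median was -0.03. Among the 26-week arrays, replicate 3 stood apart for striatal markers (a list mean of 8.61, where the other 5 ran from 7.62 to 7.88) and had the highest mean of choroid plexus and ependymal markers (7.37, followed by 6.88 on replicate 4). Replicates 5 and 6 at 26 weeks were closer to each other (r = 0.995 over genes) than to replicates 1 to 4 (r = 0.986 to 0.991), and the differences are therefore given for both sets below. A lower value in such a piece of tissue can come from fewer cells of a type or from less RNA in each cell, and these cannot be told apart here.

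**Figure D1:**
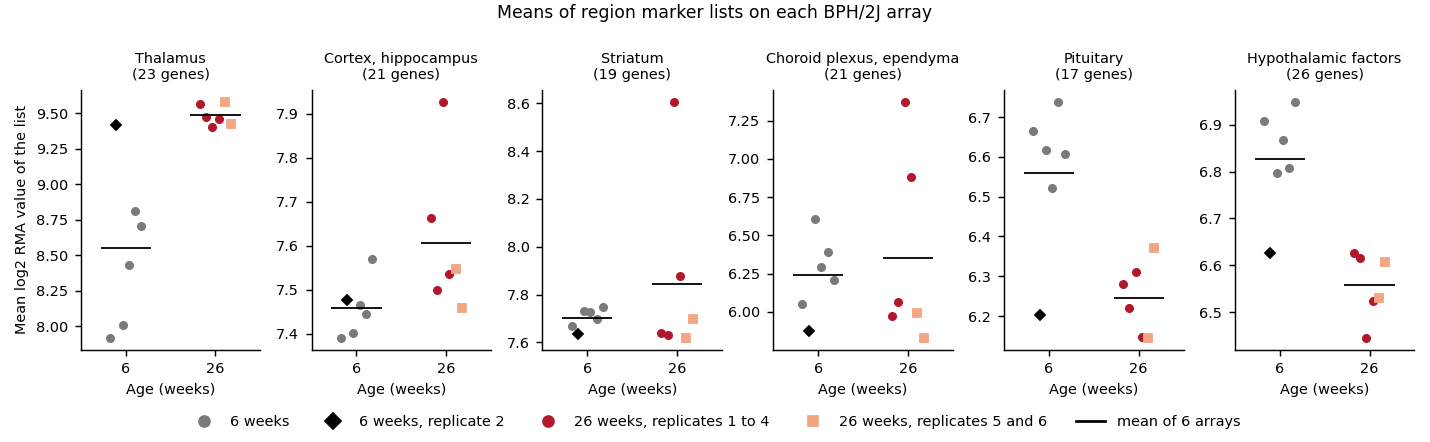
Mean log2 RMA value of 6 marker lists on each of the 12 BPH/2J arrays, by age in weeks; each point is 1 array and the bar is the mean of 6. Thalamus markers on 6-week replicate 2 (9.42) sit with the 26-week arrays (9.40 to 9.58), and 26-week replicate 3 is the highest for striatum and choroid plexus.

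Of 19937 genes, 3362 were called at an adjusted p below 0.05 (limma with Benjamini-Hochberg adjustment), 16.9% of all genes. Of these 1640 rose with age (8.23%) and 1722 fell (8.64%), and 338 changed at least 1.5-fold (1.70%). The 6 arrays of one age lay wholly above the 6 of the other for 757 called genes (3.80%), 271 of them higher (1.36%) and 486 lower (2.44%) at 26 weeks. Without 6-week replicate 2 the count was 3966 (19.9%), with 1898 higher (9.52%) and 2068 lower (10.4%), and without 26-week replicate 4 it was 2138. When the mean of the thalamus markers on each array was added to the model as a covariate, 8 genes stayed called (0.0401%), while the median standard error of the age difference went from 0.09 to 0.14. The part of tissue composition in the other calls was not tested. These 8 were Gpr17, Abca8a, Il33, Sema4f, Pex5, Bod1, Sfxn3 and Slc25a31, named here because that result singled them out, and the first 6 were also called in BPN/3J in the same direction. Pex5, a peroxisomal import receptor (-0.50 ± 0.06), and Bod1, a protein of chromosome alignment (-0.35 ± 0.07), fell, while Sfxn3, a mitochondrial carrier (0.52 ± 0.06), and Slc25a31, an ADP/ATP carrier (0.79 ± 0.14), rose. Slc25a31 was dim, with a 6-week median of 4.77, where the medians of unnamed probe sets ran from 4.60 to 4.85 over the arrays.

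The smallest adjusted p of all genes was that of Gpr17, followed by Abca8a and Sema4f. Gpr17, a receptor of oligodendrocyte precursors that are about to mature, had lowest, median and highest levels of 8.42, 8.70 and 8.98 at 6 weeks. At 26 weeks it had 7.51, 7.71 and 7.87. No 26-week mouse reached the lowest 6-week mouse, and Gpr17 fell by 1.02 ± 0.09 (SE, n = 6 per age, 2.02-fold, adjusted p = 2.93e-07, limma). The value on 6-week replicate 2 (8.98) was the highest of that age, and the difference with the thalamus covariate was -1.05. Of 20 markers of precursors and newly formed oligodendrocytes 6 fell (30%, against 8.64% of all genes) and 1 rose (5%, against 8.23%). Their median was -0.16 (all genes: -0.03). The one that rose was Tcf7l2, a Wnt-pathway transcription factor that thalamic neurons also express. Its levels were 7.83, 8.72 and 9.67 at 6 weeks and 9.90, 10.08 and 10.19 at 26 weeks. The rise of 1.32 ± 0.21 came to 0.20 with the covariate. Tcf7l2 is itself in the thalamus list whose mean is the covariate, so part of that drop was built in. Bcan, which encodes the proteoglycan brevican, fell from 10.20, 10.24 and 10.45 to 9.64, 9.72 and 10.11, without overlap (-0.48 ± 0.11). Mycl, a transcription factor of the Myc family (-0.30 ± 0.08), and Sirt2, a deacetylase abundant in oligodendrocytes (-0.27 ± 0.08), also fell, and Sirt2 was no longer called without 26-week replicate 4 (adjusted p = 0.0514, limma).

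Mature myelin genes did not follow 1 direction. Among 28 measured members of that list 7 rose (25%, against 8.23% of all genes) and 2 fell (7.14%, against 8.64%). The median difference was 0.14, and the list mean on 6-week replicate 2 was the highest of its age at 9.63. Il33, an alarmin cytokine stored in nuclei of glia and placed in this list because mature oligodendrocytes express it, had levels of 7.79, 8.13 and 8.22 at 6 weeks. All 26-week mice were higher, at 8.73, 9.46 and 9.66, a rise of 1.25 ± 0.14 (2.38-fold, adjusted p = 1.57e-05, limma). It was 8.17 on 6-week replicate 2, within the range of its age group. Anln, the septin-binding protein anillin that lies along the myelin sheath, rose by 0.92 ± 0.19, and Apod, an apolipoprotein of glia, by 0.58 ± 0.14. In the other direction, Cldn11, the claudin that forms tight junctions between myelin layers (-0.60 ± 0.17), and Mal, a myelin proteolipid (-0.47 ± 0.12), were lower at 26 weeks, and both were highest at 6 weeks on replicate 2. The core component Mbp was 10.49, 10.78 and 10.97 at 6 weeks and 10.49, 10.71 and 10.95 at 26 weeks, and was not called (-0.04 ± 0.08, adjusted p = 0.754, limma). Abca8a, a lipid transporter of the ATP-binding cassette family, belonged to no list and ranked with these genes in size. It ran at 6.24, 6.40 and 7.06 in young mice and 7.52, 7.84 and 8.29 in old mice, a rise of 1.40 ± 0.14 (2.64-fold, adjusted p = 1.61e-06, limma) that was 1.46 with the covariate.

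Astrocyte genes that passed the test were lower at 26 weeks. Of 28 measured astrocyte markers 10 fell (35.7%, against 8.64% of all genes) and 0 rose. Their median was -0.15, and -0.04 with the thalamus covariate. Replicates 5 and 6 of 26 weeks alone gave 0 calls in this list. The metallothionein genes Mt1, Mt2 and Mt3, described below, are among the 10 that fell. Slc1a3, a glutamate transporter, ran from 10.92 to 11.26 at 6 weeks and from 10.62 to 11.02 at 26 weeks (-0.43 ± 0.07, adjusted p = 0.000336, limma). Fgfr3, a growth factor receptor of astrocytes, fell by 0.48 ± 0.10, and its 26-week value on 1 array reached 10.09, inside the 6-week range. Itih3 (-0.50 ± 0.11), Slc7a10, a transporter of neutral amino acids (-0.34 ± 0.08), and Mlc1, a membrane protein of astrocyte endfeet (-0.24 ± 0.05), moved the same way. Gfap, the intermediate filament of astrocytes, had 7.67, 8.41 and 9.08 at 6 weeks and 6.56, 7.65 and 8.17 at 26 weeks, so the ages overlapped. With the covariate its difference was 0.0024. It was called (-0.88 ± 0.27, adjusted p = 0.0254, limma), but lost the call when 1 of 4 arrays was left out (replicates 1 and 3 at 6 weeks, 1 and 5 at 26 weeks; highest adjusted p = 0.0778). Agt, the angiotensinogen made by astrocytes, was not called (-0.08 ± 0.07).

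Metallothioneins are small cysteine-rich proteins that bind zinc and copper, and glucocorticoids and metals raise their transcription. Mt2 had levels of 12.03, 12.11 and 12.22 at 6 weeks and 11.003, 11.19 and 11.93 at 26 weeks, without overlap, and fell by 0.71 ± 0.19 (1.64-fold, adjusted p = 0.0108, limma). Mt1 went from 11.87, 11.94 and 12.001 to 11.46, 11.63 and 11.79, again without overlap (-0.29 ± 0.07). Mt3, the form found mainly in brain and named here after its value was seen, ran from 10.79 to 10.97 at 6 weeks and from 10.44 to 10.81 at 26 weeks (-0.31 ± 0.09), and lost its call without 26-week replicate 4 (adjusted p = 0.0565, limma). All 3 were called lower in BPN/3J as well, with differences of -0.27 for Mt1, -0.80 for Mt2 and -0.39 for Mt3. These genes are neighbours on mouse chromosome 8, and the 250 bases before the RefSeq start of Mt1 and Mt2 (GRCm38.p6, plus strand, 5′ to 3′) are shown because both moved together. Capitals mark TGCNCNC or its reverse complement on the other strand. This pattern is looser than the core of the metal response element, which has only A or G after TGC. The marked TGCTCTC and GGGAGCA of Mt2 match the looser pattern alone. 
Mt1 chr8:94178839-94179088: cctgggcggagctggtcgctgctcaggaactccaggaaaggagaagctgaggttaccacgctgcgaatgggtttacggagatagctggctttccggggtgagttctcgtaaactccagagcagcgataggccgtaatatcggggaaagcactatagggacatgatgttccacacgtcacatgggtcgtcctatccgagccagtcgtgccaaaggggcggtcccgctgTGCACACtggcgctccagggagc
Mt2 chr8:94172368-94172617: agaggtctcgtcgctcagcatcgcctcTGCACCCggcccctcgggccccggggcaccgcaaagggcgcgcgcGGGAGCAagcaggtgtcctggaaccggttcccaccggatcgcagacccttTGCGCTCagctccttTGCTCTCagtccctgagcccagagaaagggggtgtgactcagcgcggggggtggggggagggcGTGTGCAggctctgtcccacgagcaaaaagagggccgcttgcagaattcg
The Mt1 window held 1 match to this looser pattern and the Mt2 window 5, with no overlapping matches. The Mt3 window held 1, GGGAGCA, which is not the stricter core either. Among 32851 RefSeq promoter windows of this length 44.4% held at least 1 match and 0.344% at least 5. A match is a description of letters and not a measured site. Only bases before the RefSeq start were searched, so the counts do not compare the whole promoters of these genes.

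Genes of the extracellular matrix fell where they were called. Of 38 measured collagens, laminins and matrix partners 10 fell (26.3%, against 8.64% of all genes) and 0 rose, with a median difference of -0.22. Sparc, a collagen-binding matrix protein, had 12.32, 12.49 and 12.53 at 6 weeks and 11.71, 11.89 and 12.15 at 26 weeks, without overlap (-0.55 ± 0.09, adjusted p = 0.000231, limma). Col1a1, the main fibrillar collagen chain, ran from 6.79 to 7.39 and then from 6.43 to 6.97 (-0.55 ± 0.13), and 6-week replicate 2 was its lowest young array. Col4a2 of basement membranes (-0.52 ± 0.11), Col11a1 (-0.49 ± 0.11) and Loxl1, a lysyl oxidase relative that cross-links elastin (-0.39 ± 0.08), were lower too. For the matrix list the 6-week array mean of replicate 2 was 6.28, the lowest of its age, and the median difference with the thalamus covariate was -0.07. Mural and meningeal markers, whose cells make much of the matrix in brain, had 0 of 24 genes called in either direction (limma, with 3 at an unadjusted p below 0.05). Their list mean ran from 6.55 to 7.17 at 6 weeks and was 7.26 on 26-week replicate 3, where the other old arrays reached at most 6.71. With this spread the lack of calls does not show that these markers were unchanged.

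Neuropeptide precursors with marked falls included those of CART, galanin, dynorphin, orexin and neuropeptide Y. Of 51 measured peptide and peptide-processing genes 11 fell (21.6%, against 8.64% of all genes) and 2 rose, with a median of -0.18. Cartpt, the CART peptide precursor that curbs feeding and acts in autonomic centres, had 9.06, 9.66 and 9.70 at 6 weeks and 8.36, 8.58 and 8.90 at 26 weeks (-0.95 ± 0.15, 1.93-fold, adjusted p = 0.000231, limma). Gal, the galanin precursor, fell without overlap from 8.06, 8.40 and 8.57 to 7.23, 7.62 and 7.90 (-0.79 ± 0.18), and its difference with the thalamus covariate was -0.81. Pdyn, the dynorphin precursor, moved from 7.57, 8.06 and 8.35 to 7.31, 7.40 and 7.52 (-0.59 ± 0.14). On 6-week replicate 2 all 3 were at the lowest level of the young group, between the other 6-week mice and the old mice.

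Peptides of arousal, feeding and growth fell as well. Hcrt, the orexin precursor of the lateral hypothalamus, had 10.25, 10.93 and 11.21 at 6 weeks and 8.72, 9.75 and 10.76 at 26 weeks, with overlap at the edge (-1.09 ± 0.29, 2.13-fold, adjusted p = 0.0119, limma). Replicates 1 to 4 of 26 weeks differed from the young mice by -1.53, while replicates 5 and 6 differed by -0.23. Npy, the appetite-raising neuropeptide Y, ran at 8.30, 9.21 and 10.003 and then 7.59, 8.30 and 8.57 (-0.96 ± 0.23), and 6-week replicate 2 (8.30) lay among the old mice. Ghrh, which drives growth hormone release, went from 6.76, 7.46 and 7.82 to 6.50, 6.76 and 6.96 (-0.68 ± 0.15), again with 6-week replicate 2 lowest of the young group. Ghsr, the ghrelin receptor, fell by 0.46 ± 0.10.

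Several peptides of interest for blood pressure or reproduction were not called. For Avp, vasopressin, the levels were 7.89, 8.85 and 10.08 at 6 weeks and 7.22, 8.95 and 9.28 at 26 weeks (-0.31 ± 0.42, adjusted p = 0.652, limma), and for Oxt, oxytocin, 8.68, 10.09 and 10.64 and 7.92, 9.88 and 10.35 (-0.33 ± 0.50, adjusted p = 0.688). The differences were 0.17 ± 0.16 for Crh, -0.69 ± 0.36 for Pomc, -0.49 ± 0.41 for Trh, -0.04 ± 0.20 for Sst, -0.24 ± 0.15 for Pmch, -0.10 ± 0.16 for Gnrh1 and -0.28 ± 0.12 for Kiss1. With standard errors of up to 0.50 for these genes, changes as large as those of Gal were not detectable for all of them. Agrp was not analysed here.

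Receptors of peptides gave falls and a few rises. Of 60 measured peptide receptors 13 fell (21.7%, against 8.64% of all genes) and 4 rose (6.67%, against 8.23%), with a median of -0.17. Npffr1, a receptor of RFamide peptides, had 6.83, 7.07 and 7.42 at 6 weeks and 6.24, 6.61 and 6.82 at 26 weeks (-0.54 ± 0.12). Sstr1, a somatostatin receptor, fell by 0.50 ± 0.11, and Adcyap1r1, the PACAP receptor, by 0.47 ± 0.10. Pcsk1, the prohormone convertase that cuts several of these precursors, fell without overlap from 8.99, 9.27 and 9.42 to 8.38, 8.72 and 8.94 (-0.54 ± 0.10). Ramp3, a partner of the calcitonin receptor that is also a thalamus marker in these lists, rose from 6.25, 7.91 and 9.15 to 9.02, 9.29 and 9.58 (1.54 ± 0.29). On 6-week replicate 2 it was at 9.15. The difference with the thalamus covariate, a mean that includes Ramp3, was -0.04.

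Transcription factors that lay out hypothalamic regions fell in many cases. Of 26 measured factors 11 fell (42.3%, against 8.64% of all genes) and 1 rose (3.85%, against 8.23%). A negative difference was seen for 23 of them, against 11385 of all 19937 genes, and their median was -0.35. Nkx2-1, required for the ventral hypothalamus, had 6.52, 7.02 and 7.28 at 6 weeks and 6.07, 6.24 and 6.58 at 26 weeks (-0.72 ± 0.10, adjusted p = 0.000142, limma), with 6-week replicate 2 (6.52) inside the range of the old mice. Nkx2-4, its close relative, moved from 7.40, 7.65 and 7.75 to 6.95, 7.17 and 7.38, without overlap (-0.44 ± 0.10). Tbx3, a factor of arcuate neurons (-0.54 ± 0.12), and Hmx3, a homeobox factor (-0.49 ± 0.10), fell as well. The factor that rose was Lhx9, from 5.57, 6.36 and 7.44 to 7.27, 7.84 and 8.002 (1.31 ± 0.26), and thalamic cells express it too; it was 7.44 on 6-week replicate 2 and its difference with the covariate was 0.13. Over the list the median with the covariate was -0.12, and the part of dissection in these falls was not tested. Pituitary markers, which would mark tissue from below, gave 5 lower (29.4%, against 8.64% of all genes) and 0 higher of 17. Of their 17 differences 16 were negative. The 5 were Nnat, Pcsk1, Dlk1, Chga and Tbx19. Nnat, Pcsk1 and Dlk1 are also described here as genes of immature neurons, peptide processing and an imprinted region. Of the 17 genes 11 lay above the median of unnamed probe sets on all 12 arrays. The amount of pituitary tissue was not tested.

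The largest fall without overlap was that of a neurotransmitter enzyme. Hdc, the enzyme that makes histamine in the tuberomammillary nucleus, had 8.02, 8.51 and 8.73 at 6 weeks and 6.004, 7.28 and 7.95 at 26 weeks. It fell by 1.36 ± 0.33 (2.57-fold, adjusted p = 0.00682, limma), and the difference was -0.90 in replicates 1 to 4 and -2.30 in replicates 5 and 6. Baiap3, a regulator of dense-core vesicle release, went from 9.98, 10.61 and 10.76 to 8.73, 9.27 and 9.70 (-1.31 ± 0.16, 2.48-fold). Gabrq, the theta subunit of GABA-A receptors, moved from 8.58, 9.29 and 9.39 to 7.72, 8.16 and 8.34 (-1.05 ± 0.15), and Gabre, the epsilon subunit, from 6.86, 7.60 and 7.70 to 6.36, 6.57 and 6.90 (-0.85 ± 0.17). These 4 genes were lowest of the young group on 6-week replicate 2. Gpr101, an orphan receptor of hypothalamic neurons (-0.80 ± 0.15), Tmem145 (-0.84 ± 0.19), AW551984 (-0.84 ± 0.11), Wdr6 (-0.81 ± 0.11) and Sema4f, a transmembrane semaphorin (-0.80 ± 0.08), made up the 12 largest falls without overlap together with Hdc, Baiap3, Gabrq, Gpr17, Cartpt, Gal and Mir382. Irs4, an insulin receptor substrate of the hypothalamus, overlapped slightly between ages (8.17 to 8.99 against 7.30 to 8.41) and fell by 0.99 ± 0.19.

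**Figure D2:**
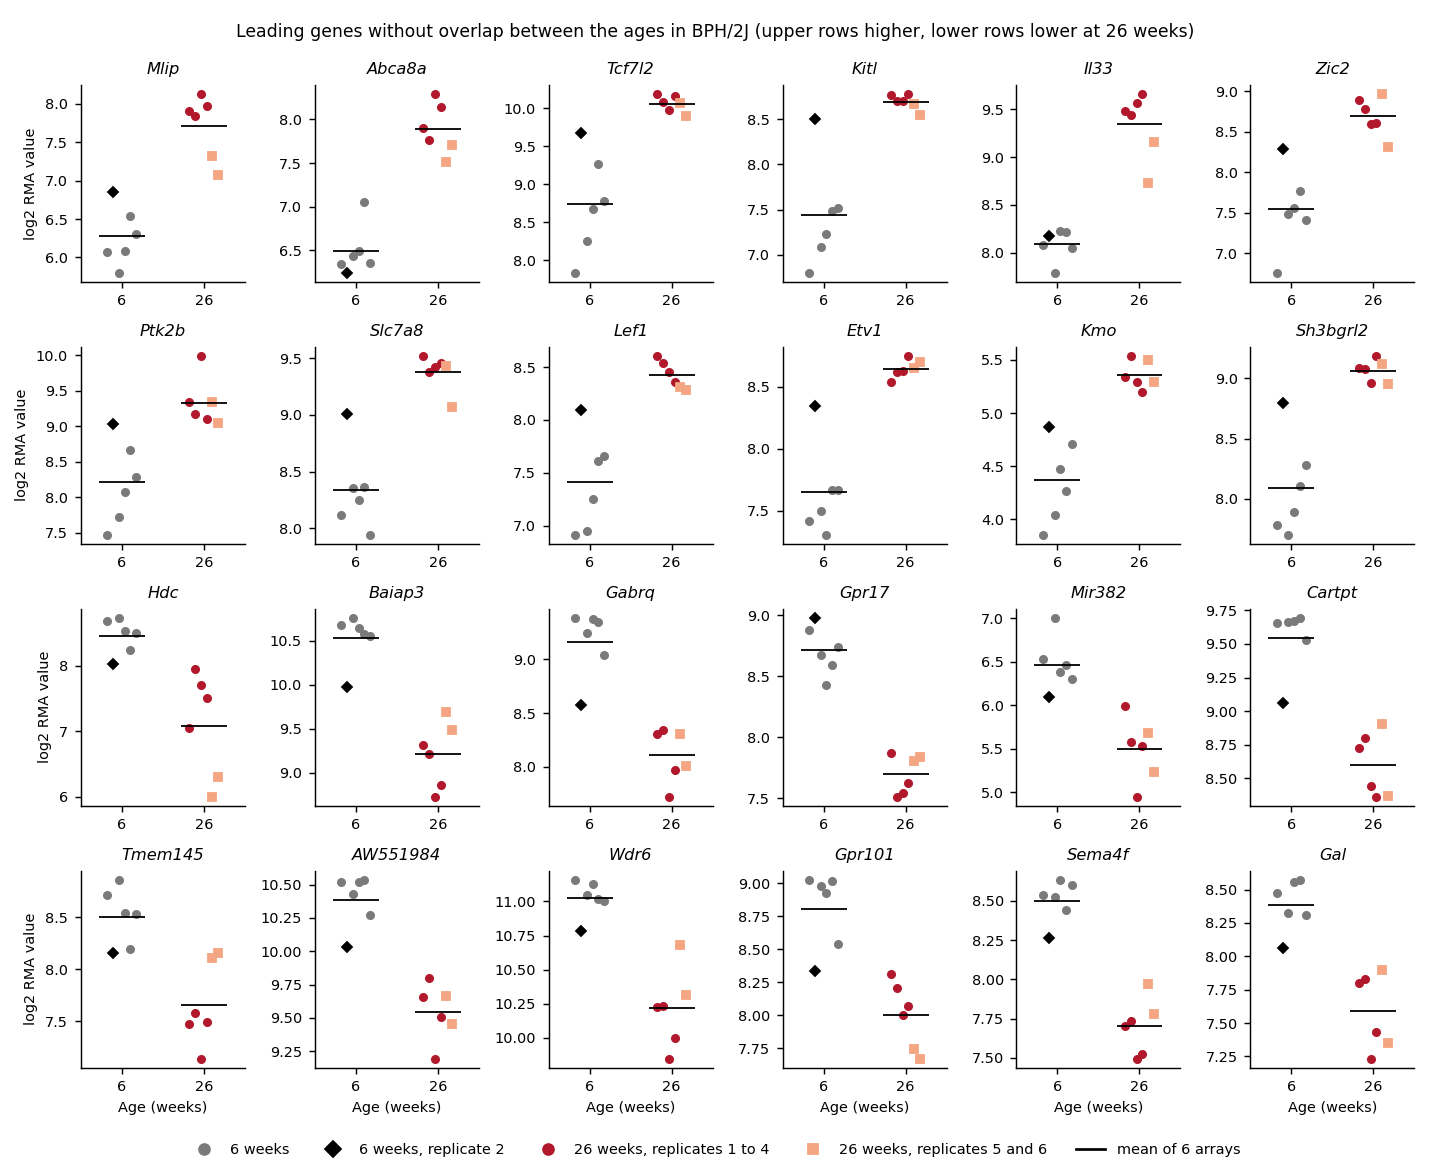
Log2 RMA values of the 12 genes with the largest rise and the 12 with the largest fall among called genes whose ages do not overlap, by age in weeks; each point is 1 BPH/2J array and the bar is the mean of 6. For Abca8a, Il33 and Gpr17 the 6-week replicate 2 lies with its own age or beyond it, and for Kitl, Tcf7l2 and Etv1 it lies between the other young mice and the old mice.

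One of these falls belonged to a microRNA gene, Mir382, which lies in the imprinted region between Dlk1 and Dio3 on chromosome 12. Genes there are expressed from 1 parental copy, with Dlk1 and Dio3 from the paternal and the long RNA Meg3 and a large group of microRNAs from the maternal chromosome. The probe sets report RNA of the microRNA genes and do not measure the mature microRNAs. Mir382 had 6.10, 6.42 and 7.01 at 6 weeks and 4.95, 5.56 and 5.99 at 26 weeks, without overlap, and fell by 0.97 ± 0.25 (adjusted p = 0.0101, limma). The region was then described as a whole, a choice made after these values were seen. Between Dlk1 and Dio3 48 genes were measured, 40 of them microRNA genes. A negative difference was found for 46 of the 48 (all genes: 11385 of 19937), with a median of -0.30 (all genes: -0.03). For the 40 microRNA genes alone it was 38. Of the 48 genes 7 were called lower (14.6%, against 8.64% of all genes) and 0 higher. Dlk1, a membrane protein related to the ligands of Notch, went from 8.92, 9.41 and 9.78 to 8.33, 8.51 and 9.24 (-0.78 ± 0.20), and Dio3, the enzyme that inactivates thyroid hormone, from 4.76, 4.92 and 5.43 to 4.42, 4.61 and 4.83 (-0.39 ± 0.10). Dio3 and Mir369 were at or below the median of unnamed probe sets on 4 and 6 of the old arrays, and with such values raised to that median the differences were -0.30 for Dio3 and -0.26 for Mir369. Mir667 moved from 7.80, 8.03 and 8.12 to 7.05, 7.44 and 7.78 (-0.58 ± 0.13), Mir409 fell by 0.44 ± 0.14, Mir369 by 0.59 ± 0.19 and Mir539 by 0.98 ± 0.33. The last 3 lost their call when any 1 of 6, 7 and 8 of the 12 arrays was left out, with adjusted p of at most 0.108 (limma). Meg3 was not called (-0.53 ± 0.22, adjusted p = 0.0964). In BPN/3J 15 of the 48 differences were negative and the median was 0.13, but the difference between the strains was not called for any of the 48 genes (lowest adjusted p = 0.192, limma; 13 at an unadjusted p below 0.05). Over all 296 measured microRNA genes 18 fell (6.08%) and 2 rose, with a median of -0.11. Of these 296 genes 221 had a negative difference, so lower values were common among microRNA genes beyond this region too.

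Mature sequences of the 5 called microRNA genes of the region are shown to give the identity of what each gene makes; they are RefSeq sequences of GRCm38.p6, all on the plus strand, 5′ to 3′, with the seed (bases 2 to 8) in capitals.
mmu-miR-382-5p: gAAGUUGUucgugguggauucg
mmu-miR-382-3p: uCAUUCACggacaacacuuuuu
mmu-miR-667-5p: cGGUGCUGguggagcagugagcacg
mmu-miR-667-3p: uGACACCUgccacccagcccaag
mmu-miR-409-5p: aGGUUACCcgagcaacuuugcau
mmu-miR-409-3p: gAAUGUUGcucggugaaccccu
mmu-miR-369-5p: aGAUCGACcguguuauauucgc
mmu-miR-369-3p: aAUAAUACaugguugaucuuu
mmu-miR-539-5p: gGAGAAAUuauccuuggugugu
The mature miR-382-5p lies at chr12:109733781-109733802 and miR-667-5p at chr12:109720020-109720044. The 9 sequences have 9 different seeds, so the genes that fell share a position and no seed.

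Of the 12 genes with the largest rises without overlap, 9 had 6-week replicate 2 nearer to the 26-week mean than to the mean of the other young mice; the exceptions were Abca8a, Il33 and Mlip. For the 12 largest falls this number was 3. The share of such genes was 43.4% over all called genes and 53.7% over all genes. Mlip, a lamin-interacting protein, had 5.80, 6.19 and 6.85 at 6 weeks and 7.08, 7.87 and 8.13 at 26 weeks (1.43 ± 0.20, 2.69-fold), and its difference with the covariate was 0.72. Kitl, the ligand of the Kit receptor, went from 6.80, 7.35 and 8.50 to 8.55, 8.70 and 8.78 (1.26 ± 0.19), but was 8.50 on 6-week replicate 2 and at most 7.52 on the other young arrays. Zic2 (1.15 ± 0.19) and Lef1 (1.01 ± 0.16), transcription factors, Ptk2b, a calcium-dependent tyrosine kinase (1.12 ± 0.26), Slc7a8, an amino acid transporter (1.04 ± 0.14), Etv1, a transcription factor of the ETS family (0.996 ± 0.13), and Sh3bgrl2 (0.97 ± 0.13) also rose. Each of these was highest of the young group on replicate 2, and with the covariate their differences ran from 0.10 for Ptk2b to 0.52 for Slc7a8. Lef1 is itself in the thalamus list whose mean is the covariate. The enzyme Kmo, which hydroxylates kynurenine, was below the median of unnamed probe sets on 5 of 6 young arrays, which leaves a rise of at least 0.54 (measured 0.99 ± 0.15). Among the thalamus markers themselves, Nexn ran at 5.71, 6.40 and 7.92 and 7.92, 8.39 and 8.61 (1.77 ± 0.25), Plekhg1 rose by 1.69 ± 0.26 and Pdp1 by 0.86 ± 0.15.

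Genes of fast transmission moved in both directions. In the GABA list 5 of 22 genes rose (22.7%, against 8.23% of all genes) and 6 fell (27.3%, against 8.64%). Gabra4 rose from 8.73, 9.62 and 10.69 to 10.41, 10.87 and 10.93 (1.21 ± 0.23) and Gabrd from 6.34, 7.29 and 8.70 to 8.22, 8.43 and 8.94 (1.21 ± 0.25); these alpha-4 and delta subunits form extrasynaptic receptors that are abundant in the thalamus. On 6-week replicate 2 they were 10.69 and 8.70, inside the range of the old mice, and with the covariate the differences turned to -0.05 and -0.13. Slc6a11, a GABA transporter of astrocytes, fell from 12.08, 12.22 and 12.34 to 11.49, 11.65 and 12.16 (-0.48 ± 0.10). Of 25 glutamate genes 6 rose (24%) and 2 fell (8%). Slc17a7, the vesicular transporter VGLUT1, rose from 6.40, 7.42 and 8.87 to 8.46, 9.02 and 9.50 (1.41 ± 0.30) with 6-week replicate 2 at 8.87, and its difference with the covariate was 0.04. Grm3, a metabotropic receptor, rose by 0.63 ± 0.14, while the kainate receptor subunits Grik5 (-0.34 ± 0.08) and Grik3 (-0.39 ± 0.09) fell.

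Ion channel genes also moved in both directions. Of 37 potassium channel genes 12 rose (32.4%, against 8.23% of all genes) and 5 fell, with a median of 0.22 that became -0.02 with the thalamus covariate. Kcnab2, an auxiliary subunit, had 10.09, 10.17 and 10.65 at 6 weeks and 10.68, 10.80 and 10.90 at 26 weeks (0.53 ± 0.09), and Kcna4, a fast inactivating channel, rose by 0.55 ± 0.10. Kcnc2, a channel of fast-spiking neurons, rose by 0.73 ± 0.15, with 6-week replicate 2 at 10.35 and the other young arrays at most 9.81; with the covariate the difference was -0.08. Kcnk9, a leak channel, fell without overlap from 8.95, 9.32 and 9.59 to 8.48, 8.70 and 8.85 (-0.58 ± 0.11). Among 30 sodium, calcium and HCN channel genes 7 rose (23.3%) and 8 fell (26.7%, against 8.64% of all genes). Cacnb4, a calcium channel beta subunit, rose from 9.30, 9.36 and 9.75 to 9.88, 9.93 and 10.10 (0.54 ± 0.07), and Cacna1h, a T-type calcium channel, fell from 6.81, 7.03 and 7.24 to 6.38, 6.48 and 6.71 (-0.51 ± 0.09). Hcn3, a hyperpolarisation-activated channel, fell without overlap (-0.50 ± 0.09), and Scn9a, a sodium channel of neuroendocrine and sensory neurons, by 0.69 ± 0.14.

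Clock genes were measured at 1 time of day. Of 21 genes 8 rose (38.1%, against 8.23% of all genes) and 1 fell (4.76%, against 8.64%), with a median of 0.15. In BPN/3J 0 were called (limma, with 6 at an unadjusted p below 0.05). Hlf, an output factor of the clock, had 8.75, 8.85 and 9.33 at 6 weeks and 9.44, 9.54 and 9.56 at 26 weeks (0.60 ± 0.09, adjusted p = 0.000186, limma), with 6-week replicate 2 at 9.33 and the other young arrays at most 8.97. Rora, an activator that thalamic neurons express strongly, rose by 0.92 ± 0.17, and with the covariate by 0.02. Rora is itself in the thalamus list whose mean is the covariate, so part of that drop was built in. The repressor Nr1d1 rose from 9.49, 9.68 and 9.94 to 9.86, 10.02 and 10.23 (0.36 ± 0.07) and Bhlhe40, another repressor, by 0.37 ± 0.09. Dbp, an output factor related to Hlf and named after its value was seen, rose by 0.28 ± 0.07. For Nr1d1 and Dbp the 6-week replicate 2 (9.78 and 9.59) lay within the range of the other young mice, and the differences with the covariate were 0.35 and 0.24. Over the clock list the median with the covariate was 0.02, and 0 genes stayed called (limma). The kinase gene Csnk1d fell without overlap (-0.26 ± 0.05), and Per2, a core repressor, was not called (-0.07 ± 0.09).

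For systems tied to blood pressure control, shares are given to be read against all genes (8.23% higher and 8.64% lower). Of 16 genes of the renin-angiotensin system 2 rose (12.5%) and 1 fell (6.25%). Nr3c2, the mineralocorticoid receptor, ran at 7.21, 7.24 and 7.35 at 6 weeks and 7.47, 7.60 and 8.04 at 26 weeks, without overlap (0.41 ± 0.13), but lost its call without 26-week replicate 3 or 4 or 6-week replicate 5 (highest adjusted p = 0.085, limma). The type 1 angiotensin receptor Agtr1a was not called (-0.10 ± 0.13). In the nitric oxide and cGMP list 3 of 21 genes rose (14.3%) and 2 fell (9.52%). Nos1, the neuronal nitric oxide synthase, fell from 7.91, 8.16 and 8.50 to 7.47, 7.64 and 7.72, without overlap (-0.57 ± 0.10, adjusted p = 0.000477, limma). Gucy1a2, a subunit of the cGMP-forming enzyme that nitric oxide activates, rose from 8.81, 8.93 and 9.20 to 9.29, 9.35 and 9.46 (0.40 ± 0.07); with the thalamus covariate these differences were -0.15 and 0.19. Of 32 genes of amine transmitters 2 rose (6.25%) and 3 fell (9.38%), Hdc among the latter. Maob, the monoamine oxidase of glia and histamine neurons, rose from 9.05, 9.19 and 9.79 to 9.74, 10.14 and 10.27 (0.79 ± 0.14), and the serotonin receptor gene Htr1b fell by 0.32 ± 0.08. Th, the first enzyme of catecholamine synthesis, was not called (-0.46 ± 0.41).

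Of 26 genes of the gonadal and growth axes 7 fell (26.9%) and 2 rose (7.69%). Igf1, insulin-like growth factor 1, rose from 6.07, 6.37 and 6.67 to 6.91, 7.01 and 7.23, without overlap (0.67 ± 0.08, adjusted p = 2.60e-05, limma), and Lin28b, a repressor of let-7 microRNAs linked to the timing of puberty, rose by 0.55 ± 0.11. Of 22 glucocorticoid-related genes 4 rose (18.2%) and 3 fell (13.6%). Hsd11b1, which regenerates active glucocorticoid, rose from 6.46, 6.61 and 6.84 to 6.75, 7.27 and 7.39 (0.53 ± 0.13), beside the falls of Mt1 and Mt2. Antioxidant genes gave 1 rise (4%) and 3 falls (12%) among 25, near the shares of all genes. Gstp1, a glutathione transferase, fell without overlap from 11.63, 11.72 and 11.92 to 10.83, 11.11 and 11.58 (-0.59 ± 0.10), Gclm, a subunit of the enzyme that starts glutathione synthesis, by 0.34 ± 0.06 and the peroxidase Gpx3 by 0.67 ± 0.17. The haem oxygenase gene Hmox2 rose by 0.42 ± 0.08.

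Energy and translation genes showed small rises. Of 37 subunits of oxidative phosphorylation 12 rose (32.4%) and 1 fell, with a median of 0.11. Cox6a1, a subunit of cytochrome oxidase, had 10.80, 11.03 and 11.35 at 6 weeks and 11.35, 11.56 and 11.67 at 26 weeks (0.49 ± 0.08), and the complex I subunits Ndufb8 and Ndufa1 rose by 0.43 ± 0.08 and 0.57 ± 0.13. The list mean of 6-week replicate 2 (10.69) was the highest of the young group. Of 29 ribosomal protein genes 8 rose (27.6%, against 8.23% of all genes) and 0 fell, with a median of 0.12. Rps6, a protein of the small subunit, had 11.55, 11.76 and 11.89 at 6 weeks and 11.63, 12.62 and 12.85 at 26 weeks (0.67 ± 0.18); it rose by 1.000 in replicates 1 to 4 and differed by 0.01 in replicates 5 and 6. Rpl10a rose by 0.39 ± 0.09. Near-identical pseudogenes exist for ribosomal protein genes, so probe sets of this list may pick up several copies.

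Protocadherin genes, whose clustered members give neurons a surface identity, gave more rises than falls. Of 22 measured members 8 rose (36.4%, against 8.23% of all genes) and 2 fell (9.09%, against 8.64%), with a median of 0.22. Pcdhb9 had 5.25, 5.55 and 5.80 at 6 weeks and 5.89, 6.42 and 6.69 at 26 weeks (0.78 ± 0.13), Pcdhb20 6.32, 6.66 and 6.72 and 6.79, 7.13 and 7.27 (0.45 ± 0.11), both without overlap. Pcdhb3 rose by 0.50 ± 0.10 and Pcdhb2 by 0.59 ± 0.13, while Pcdh20, which lies outside the cluster, fell by 0.48 ± 0.12. Members of this cluster are similar in sequence, so their probe sets may share signal. Among 46 genes of axon guidance and adhesion 9 rose (19.6%) and 12 fell (26.1%). Ntng1, a netrin-G ligand of thalamic axons, rose by 1.04 ± 0.20 (-0.09 with the covariate), Cntn4 by 0.67 ± 0.11, and Efnb2, an ephrin, fell by 0.66 ± 0.12 and Unc5d, a netrin receptor, by 0.58 ± 0.11.

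Markers of microglia gave rises and no falls. The shares in this paragraph are to be read against all genes (8.23% higher and 8.64% lower), and several lie near them. Of 29 microglia and macrophage markers 5 rose (17.2%) and 0 fell, with a median of 0.10. P2ry13, a purine receptor of microglia, had 7.15, 7.24 and 7.56 at 6 weeks and 7.52, 8.16 and 8.36 at 26 weeks (0.71 ± 0.15, adjusted p = 0.00278, limma), and Gpr34, another microglial receptor, rose without overlap from 5.03, 5.17 and 5.37 to 5.40, 5.67 and 5.94 (0.47 ± 0.12). Complement, MHC and interferon genes had 2 of 24 higher (8.33%) and 0 lower. The immunoproteasome subunit Psmb10 rose by 0.33 ± 0.09. In the endothelial list 4 of 28 rose and 4 fell (14.3% each). Angpt2, a ligand of the Tie2 receptor, rose from 4.87, 5.31 and 6.20 to 6.03, 6.29 and 6.49 (0.90 ± 0.15) with 6-week replicate 2 at 6.20, while Mfsd2a, a lipid transporter of the blood-brain barrier, fell by 0.36 ± 0.09. Of 31 cell cycle genes 4 fell (12.9%) and 0 rose. Ccnd1, cyclin D1, fell from 8.38, 8.66 and 8.88 to 7.88, 8.14 and 8.30 (-0.53 ± 0.08). Of 25 genes of immature neurons 6 fell (24%) and 2 rose (8%). Nnat, the imprinted neuronatin, fell by 0.60 ± 0.10, Sox4 by 0.34 ± 0.08 and Tubb2b, a beta-tubulin of growing neurons, by 0.37 ± 0.08. Dcx, doublecortin, was not called (0.11 ± 0.11). Cholesterol synthesis genes gave 2 higher and 2 lower of 23 (8.7% each). Immediate early genes gave 2 higher of 22 (9.09%), Dusp1 (0.76 ± 0.19) and Dusp6 (0.58 ± 0.13), both phosphatases of MAP kinases, and Fos was not called (0.34 ± 0.21). In the perineuronal net list 1 gene of 16 rose (6.25%) and 3 fell (18.8%). The gene that rose was Pvalb, parvalbumin of fast-spiking neurons, from 8.56, 9.03 and 9.69 to 9.20, 10.44 and 10.84 (1.21 ± 0.21). Tanycyte markers had 1 rise (5.56%) and 2 falls (11.1%) among 18, with Rax, a homeobox factor of tanycytes, at -0.55 ± 0.12 and Adm, adrenomedullin, at 0.53 ± 0.12. Choroid plexus and ependymal markers gave 1 rise (4.76%) and 2 falls (9.52%) of 21. Hdc, also counted among the amine genes, was 1 of these falls, and 14 of the 21 differences were positive. Striatal markers gave 4 rises (21.1%) and 1 fall (5.26%) of 19, and cortical and hippocampal markers 4 (19%) and 3 (14.3%) of 21. Chromatin genes gave 2 (10.5%) and 1 (5.26%) of 19, and red blood cell genes 0 of 5 (limma, with 2 at an unadjusted p below 0.05).

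**Figure D3:**
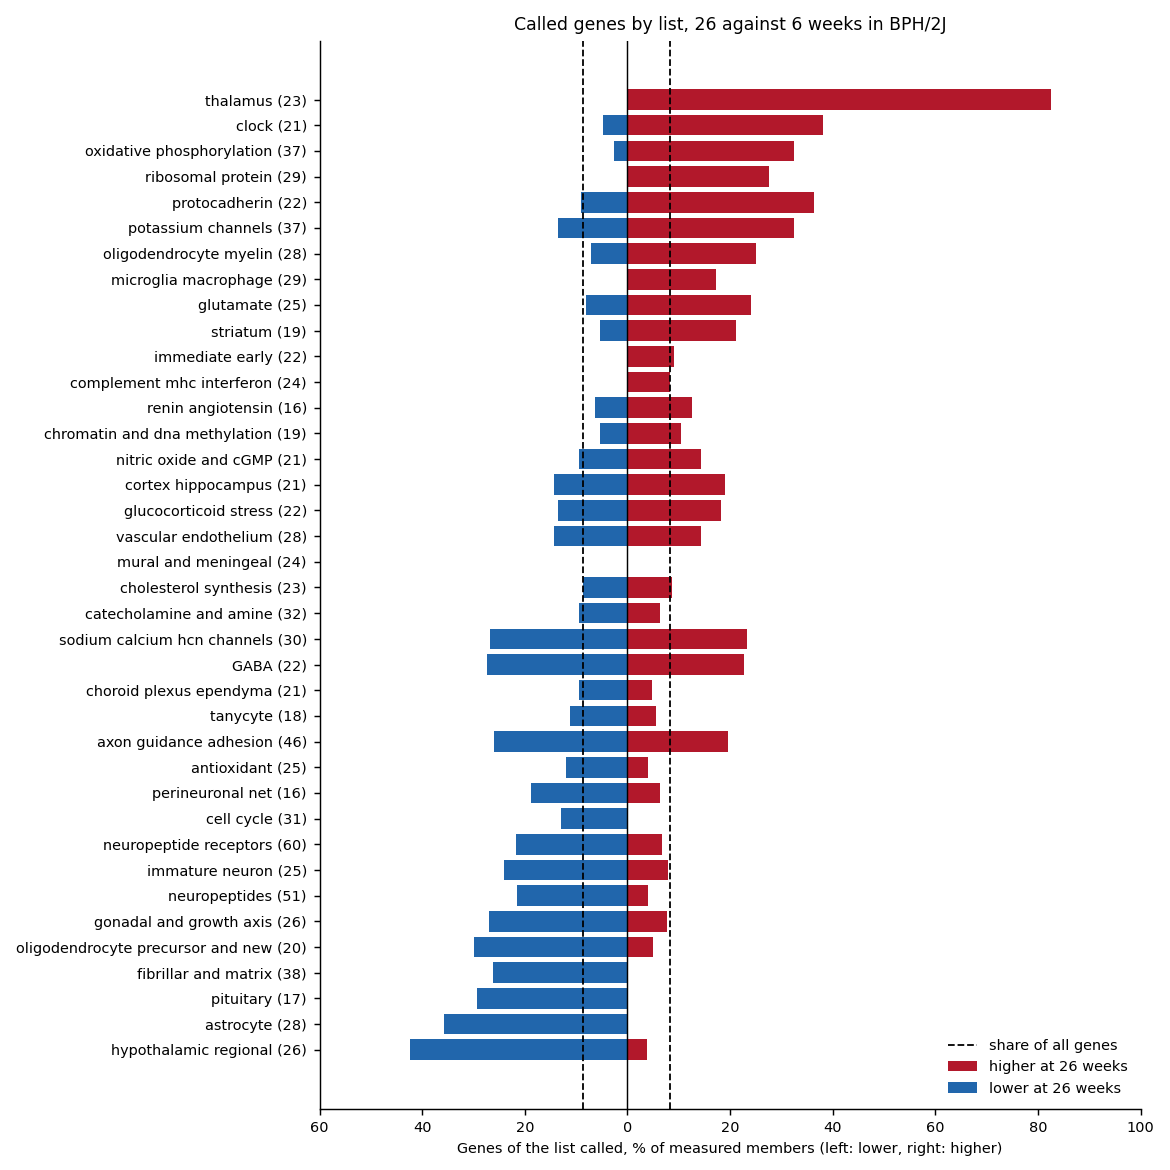
Share of the measured genes of each list (number in brackets) that was called higher (right) or lower (left) at 26 weeks in BPH/2J, in percent; dashed lines mark the shares over all genes, 8.23% and 8.64%. The thalamus list has 82.6% higher and 0% lower, and the hypothalamic regional factors 3.85% higher and 42.3% lower.

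The age difference in BPN/3J tells which of these changes were also seen in mice with normal blood pressure. There 2445 genes were called (12.3%), 917 higher (4.60%) and 1528 lower (7.66%), and the count was 4230 without 26-week replicate 5 of BPN/3J and 1034 without replicate 4. Both strains called 994 genes, 990 of them in the same direction, 356 higher and 634 lower, which is 29.4% of the BPH/2J calls and 40.5% of the BPN/3J calls. Gpr17 differed by -1.02 ± 0.09 in BPN/3J (adjusted p = 2.89e-07, limma), Abca8a rose by 1.45 ± 0.14 and Il33 by 0.99 ± 0.14. Lower in both strains were also Cartpt (-0.77 in BPN/3J), Hcrt (-1.29), Wdr6 (-0.66), Sema4f (-0.44), Sparc (-0.37), Fgfr3 (-0.46) and Ccnd1 (-0.41). Among lists, 7 of the 10 astrocyte genes and 5 of the 6 oligodendrocyte precursor genes that fell in BPH/2J fell in BPN/3J too. Mt1, Mt2 and Mt3 are among these 7 astrocyte genes. Of the genes that rose, 7 of the 8 protocadherin and 5 of the 8 ribosomal protein genes also rose in BPN/3J. The 1 precursor gene that rose and the 2 protocadherins that fell were not shared. Of the genes called in BPH/2J, BPN/3J called in the same direction 0 of 19 thalamus markers, 0 of 9 clock genes and 2 of 10 matrix genes. It also called 3 of 12 hypothalamic factors, 3 of 17 peptide receptors and 4 of 13 peptide genes. These are to be read against the 29.4% of all BPH/2J calls, and the hypothalamic factors and peptide genes lie near that share. In BPN/3J 10 myelin genes and 10 cholesterol synthesis genes fell and 1 of each list rose, with medians of -0.22 for both. Of the 990 shared genes 17.2% had 6-week replicate 2 nearer to the 26-week mean than to the mean of the other young BPH/2J mice, against 43.4% of all BPH/2J calls and 53.7% of all genes. With the thalamus covariate 6 of the 990 stayed called in BPH/2J and 989 kept their sign, while the median standard error went from 0.09 to 0.14.

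The strain by age interaction, which tests whether an age difference is larger in one strain, was called for 6 genes (0.0301%), while 2160 had an unadjusted p below 0.05 (10.8%). Srpx2, a secreted protein of synapses and vessels, rose in BPH/2J from 5.25, 5.48 and 6.18 to 6.18, 6.49 and 6.59 (0.82 ± 0.12) and in BPN/3J differed by -0.19 ± 0.12 (interaction 1.01 ± 0.18, adjusted p = 0.0313, limma). Ptpro, a receptor tyrosine phosphatase, fell from 8.43, 8.82 and 9.07 to 7.70, 8.19 and 8.25 (-0.70 ± 0.10), against 0.09 in BPN/3J (interaction -0.78). Dgkk, a diacylglycerol kinase, went from 7.93, 8.21 and 8.53 to 7.44, 7.57 and 7.75 (-0.66 ± 0.09), against 0.13 (interaction -0.78). For Coq8b, needed to make coenzyme Q, the levels were 7.82, 8.18 and 8.20 and 7.48, 7.55 and 7.70 (-0.54 ± 0.07), against 0.02 (interaction -0.56). Slit2, an axon guidance ligand, differed by -0.64 ± 0.13 in BPH/2J and 0.35 in BPN/3J (interaction -0.99), and N4bp2 by -0.52 ± 0.10 and 0.35 (interaction -0.88). For Srpx2 the 6-week replicate 2 (6.18) reached the lowest old mouse, and for Ptpro, Dgkk, Coq8b and Slit2 it was the lowest young value. The count of 6 was not stable: it was 496 without 6-week replicate 2 of BPH/2J, 0 in 14 of 24 fits that left out 1 array and 0 with the thalamus covariate (limma; 868 at an unadjusted p below 0.05). A call in BPH/2J that is missing in BPN/3J, such as that of Hdc (0.14 in BPN/3J, interaction adjusted p = 0.172, limma), Irs4 (0.31, 0.0597) or Npy (0.33, 0.0864), is therefore not shown to differ between the strains.

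**Figure D4:**
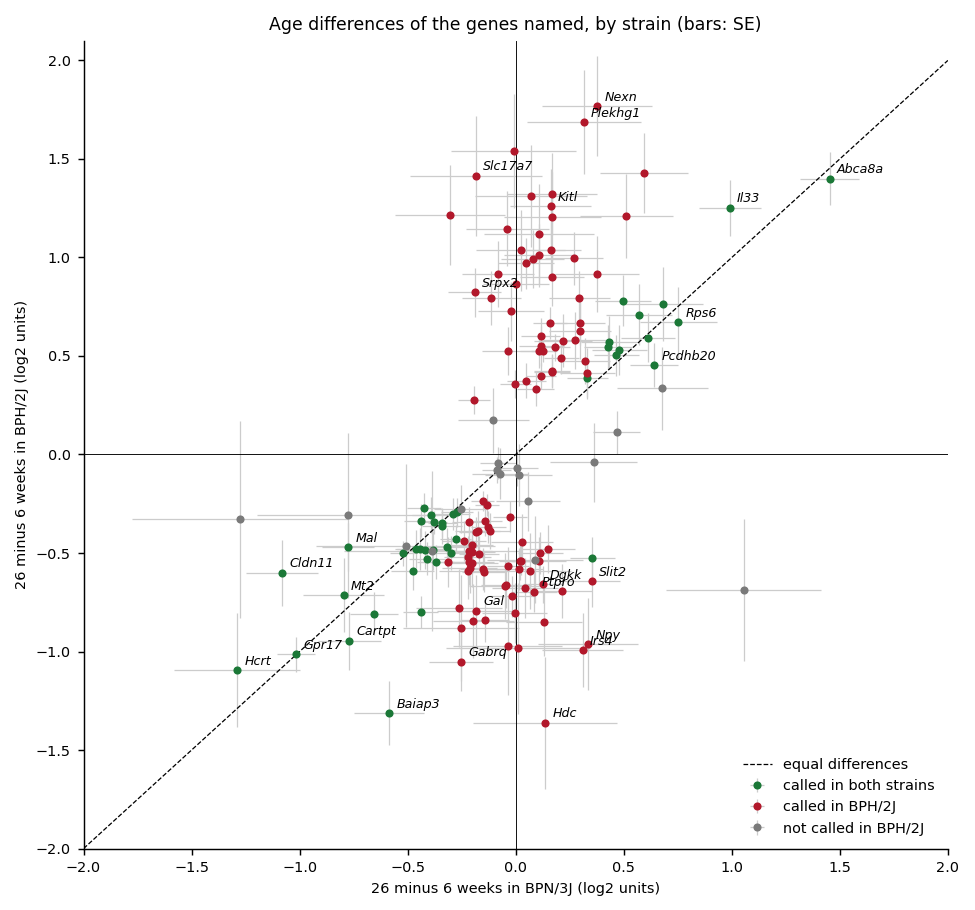
Age difference in BPH/2J against that in BPN/3J, in log2 units with standard errors, for the genes named in the text; each point is 1 gene and the dashed line marks equal differences. Gpr17 (-1.02 in both), Abca8a (1.40 and 1.45) and Il33 (1.25 and 0.99) lie near the line, while Plekhg1 and Slc17a7 differ from 0 in BPH/2J and lie near 0 in BPN/3J.

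The 26-week replicates 1 to 4 and 5 to 6 gave different numbers of calls against the same 6 young mice. Replicates 1 to 4 gave 6765 (33.9%), 3161 higher and 3604 lower, and replicates 5 and 6 gave 344 (1.73%), 152 higher and 192 lower. The sets hold 4 and 2 mice and share their controls, so the counts are set side by side with no test between them; 234 genes were called by both, which is 3.46% of the first set and 68.0% of the second, and their direction was the same. Gpr17 (-1.08 and -0.89), Abca8a (1.54 and 1.12), Gabrq (-1.08 and -1.003), Cartpt (-0.96 and -0.91), Kitl (1.30 and 1.17) and Plekhg1 (1.75 and 1.57) had values of like size in the 2 sets, in the order given. Larger in replicates 1 to 4 were the differences of Baiap3 (-1.50 and -0.94), of Hcrt, of Mt2 (-0.98 and -0.18), of P2ry13 (0.95 and 0.24) and of Rps6, and larger in replicates 5 and 6 those of Hdc, Irs4 (-0.78 and -1.43), Npy (-0.71 and -1.47) and Efnb2 (-0.48 and -1.03). The median difference was 0.86 and 0.89 for the thalamus list, -0.36 and -0.27 for the hypothalamic factors, -0.14 and -0.09 for astrocyte genes, -0.28 and -0.09 for matrix genes, 0.19 in replicates 1 to 4 and close to 0 in replicates 5 and 6 for ribosomal protein genes, and 0.30 and 0.05 for protocadherins.

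**Figure D5:**
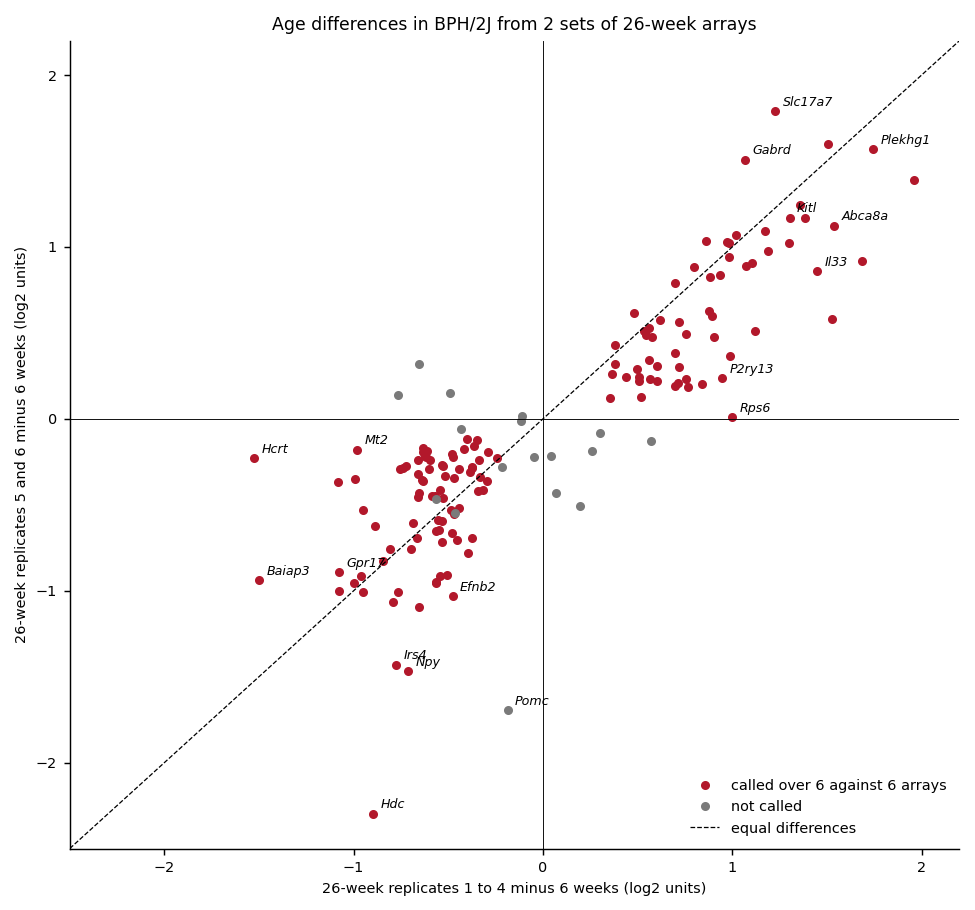
Age difference of the genes named in the text from 26-week replicates 5 and 6 (vertical) against that from replicates 1 to 4 (horizontal), both minus the same 6-week BPH/2J arrays, in log2 units; each point is 1 gene and the dashed line marks equal differences. Gpr17, Kitl and Plekhg1 lie near the line, Hcrt and Rps6 are near 0 in replicates 5 and 6, and Hdc is further from 0 there (-2.30) than in replicates 1 to 4 (-0.90).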

How the data were processed

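The 24 arrays, of the type Affymetrix Mouse Gene 1.0 ST, each measured the hypothalamus of 1 mouse. The deposited values are log2 signals made by the authors with RMA, which corrects background, equalises the arrays and summarises probes, per the submitters' processing notes, where limma is named too. Software versions and the annotation are not given in the sources used. RMA brings arrays to a like distribution of signal, so a change in total RNA is not seen and differences are relative to other genes. Groups came from the sample titles. Of 34760 probe sets 21640 carried 1 gene symbol in the platform annotation, 1321 several and 11799 none; a gene was taken as its single-symbol probe set with the highest mean over 24 arrays, which gave 19937 genes. No array was dropped or imputed (0).

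The age comparisons used limma (version 3.58.1, under R 4.3.3), with a mean per group over all 24 arrays (20 residual degrees of freedom), Benjamini-Hochberg adjustment over all genes and a threshold of 0.05; the code was tested on simulated data. Replicates 1 to 4 and 5 to 6 of 26 weeks were fitted as groups of their own. The 39 gene lists (1138 entries, 1027 measured) are described by counts and medians, and a gene of several lists counts in each. The genes named are the 12 largest rises and 12 largest falls without overlap, up to 5 called members per list with the smallest p, called interaction genes and a fixed set of hypothalamic genes, beside those said to be named after their values. The members and lists were chosen with earlier results of these data known. Separate mice are replicates, and their number limits the precision. Alternatives were the arrays in the fit, the probe set, a filter on dim genes, centring, quantile scaling, the prior, array weights, the replicate number as a block, the thalamus list mean as a covariate and leaving out each array. The smallest mean absolute difference between arrays of a group was 0.13, so none was a duplicate. Promoter and microRNA sequences are from RefSeq tables of GRCm38.p6; all 5 microRNA genes shown were matched by symbol. Figures were drawn with matplotlib.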

Additional observations from a re-analysis of the deposited data

Results flagged for a closer look

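Among 396 sets of 6 values (each gene named and each list mean, at each age of BPH/2J), 29 held 1 array whose gap to its nearest neighbour passed Dixon's limit for 6 values; chance alone gives about 1 in 20 sets. The 6-week replicate 2 stood apart for Baiap3 at 9.98, with 10.55 next to it, for Cacnb4 at 9.75, with 9.41 next to it, for Cartpt at 9.06, with 9.53 next to it and for Col1a1 at 6.79, with 7.19 next to it. It stood apart as well for Coq8b at 7.82, with 8.09 next to it, for Etv1 at 8.35, with 7.67 next to it, for Itih3 at 10.29, with 10.83 next to it and for Loxl1 at 5.77, with 6.13 next to it. It stood apart as well for Sfxn3 at 9.08, with 8.88 next to it, for Sst at 10.14, with 10.61 next to it, for Th at 7.89, with 8.38 next to it and for the glutamate list mean at 8.93, with 8.78 next to it. It stood apart as well for the gonadal and growth axis list mean at 7.16, with 7.36 next to it. The 26-week replicate 6 stood apart for Bhlhe40 at 7.84, with 8.19 next to it, for Cntn4 at 8.73, with 9.21 next to it, for Gabra4 at 10.41, with 10.82 next to it and for Lhx9 at 7.27, with 7.75 next to it. It stood apart as well for Maob at 9.74, with 10.09 next to it, for Slc7a8 at 9.07, with 9.38 next to it and for Th at 9.25, with 7.95 next to it. The 26-week replicate 3 stood apart for Avp at 7.22, with 8.72 next to it, for Ptk2b at 9.99, with 9.34 next to it, for the immediate early list mean at 7.35, with 7.03 next to it and for the mural and meningeal list mean at 7.26, with 6.71 next to it. It stood apart as well for the renin-angiotensin list mean at 6.95, with 6.84 next to it and for the striatum list mean at 8.61, with 7.88 next to it. The 6-week replicate 5 stood apart for Abca8a at 7.06, with 6.50 next to it and for Hcrt at 10.25, with 10.86 next to it. The 6-week replicate 6 stood apart for Pcdhb20 at 6.32, with 6.64 next to it.

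The age difference was called as unequal between the strains for Coq8b (-0.56, BPH/2J minus BPN/3J), Dgkk (-0.78, BPH/2J minus BPN/3J), N4bp2 (-0.88, BPH/2J minus BPN/3J), Ptpro (-0.78, BPH/2J minus BPN/3J), Slit2 (-0.99, BPH/2J minus BPN/3J), Srpx2 (1.01, BPH/2J minus BPN/3J) by the interaction term of limma.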

How the results depend on the processing

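The number of genes called for age stayed within 1.5 times its reported value with only the arrays of 1 strain, other probe set or dim-gene rules, centring, quantile scaling, another prior, a weight per group or the replicate block, from 2502 to 3883 in BPH/2J and from 2375 to 3071 in BPN/3J. With a weight per array it was 7475 in BPH/2J and 6416 in BPN/3J, with the thalamus covariate 8 in BPH/2J, and with 26-week replicates 1 to 4 or 5 and 6 alone 6765 or 344. Leaving out 1 array gave 2138 (without 26-week replicate 4) to 4838 (without 26-week replicate 6) in BPH/2J, 1034 to 4230 in BPN/3J (without 26-week replicates 1, 2 or 4 or 6-week replicates 1, 3 or 4 at most 1545) and 0 to 496 for the interaction, which was 0 in 14 of 24 such fits. The interaction count was 23 without dim genes, 34 with quantile scaling, 31 with a trended and robust prior, 2 and 683 with a weight per group and per array, 27 with the replicate block, 0 with the covariate and 966 with replicates 5 and 6; the cause was not tested. The replicate numbers were not taken as pairs: same-numbered arrays correlated from 0.01 to 0.41, 4 of 6 over 0.1, where pairing would need all 6, and 3 of 6 were highest at their own number; the block gave 3883 calls in BPH/2J and 3071 in BPN/3J. Of 159 genes named, 142 were called; with the covariate 8 of these kept call and direction and 128 kept the direction alone, and among all named genes these turned: Agt (0.0238), Fos (-0.21), Gabra4 (-0.0513), Gabrd (-0.13), Gfap (0.0024), Kcnc2 (-0.0802), Mbp (0.0046), Ntng1 (-0.094), Ramp3 (-0.0442), Sst (0.18), Th (0.66). With replicates 5 and 6, 53 of the called genes kept both and 89 lost the call, and these turned, none of them called in the reported fit: Crh (-0.0835), Dcx (-0.19), Fos (-0.13), Kiss1 (0.15), Oxt (0.32), Per2 (0.0161), Th (0.14); so did the medians of the chromatin list (-0.12), the cortex list (-0.12), the immediate early list (-0.0295) and the sodium, calcium and HCN list (0.13). With replicates 1 to 4 these turned: Agtr1a (0.0705), Mbp (0.0423), Sst (0.20); with a weight per array, Agtr1a (0.0253), Mbp (0.0204), Sst (0.0868). Leaving out 1 array turned Gnrh1 (from -0.21 to 0.0552), Mbp (from -0.10 to 0.0057), Oxt (from -0.57 to 0.0058), Sst (from -0.14 to 0.0687), none of them called. Signal against the background of each probe set was not analysed here, and changes of dim genes may be understated.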
